A study of Mus musculus with 12 samples.

Results

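Fem1b, Pkp1, Mab21l2, Rhoj and Slc41a2 were followed as genes with some of the largest falls in mouse fibroblasts carrying the S273A form of PPARγ. They were picked by their measured fall from wild-type to S273A, so that difference is described here without a test. The members were every probe set annotated with exactly 1 of these 5 symbols, which gave 6 of the 22626 probe sets left once controls were removed. Fem1b had 2 probe sets, shown separately, and the other genes had 1 each. All 6 were among the 15838 probe sets bright enough to be tested.

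All cells were mouse embryonic fibroblasts (MEFs) in which the gene for PPARγ had been knocked out, so every group lacked its own PPARγ. Either wild-type PPARγ or PPARγ with the S273A substitution, alanine for serine, was put back, and the cells were taken through 6 days of differentiation. Total RNA was measured on 12 arrays, 3 for each of 4 groups. A pair of groups had no ligand, wild-type and S273A, and in the others wild-type cells had received rosiglitazone or MRL24 at 1 µM for 24 h. No S273A cells were given a ligand. The labels name neither the vector that carried PPARγ nor any clones, and give no word on separate cultures for the replicates, so p-values measure a spread between arrays that may be technical. The form of PPARγ and the set of cells that carried it cannot be told apart.

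PPARγ is the nuclear receptor that drives fat cell formation. It binds DNA together with the retinoid X receptor and is switched on by fatty acid-like ligands and by thiazolidinedione drugs. Rosiglitazone is a thiazolidinedione and a full agonist, and MRL24 is a partial agonist. The serine replaced in S273A is a site phosphorylated by the kinase CDK5, and both ligands are known to block that phosphorylation, as the alanine substitution does. The 5 genes belong to unrelated families: FEM1B is a substrate receptor of a CUL2 ubiquitin ligase, PKP1 (plakophilin 1) is a plaque protein of desmosomes, MAB21L2 is needed for eye and body wall development, RHOJ is a small GTPase close to CDC42, and SLC41A2 is a magnesium transporter.

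RefSeq promoter sequences were at hand for 4 of the 5 genes, all but Pkp1. Each window ran from 250 bases before to 50 after the annotated start, on mouse build GRCm38.p6. The letters AGGTCA, the core motif of nuclear receptors, occurred on either strand in 16.3% of 32851 promoter windows and in 0 of the 4. The repeat AGGTCANAGGTCA, the element bound by PPARγ with its partner, occurred in 0.0396% of windows and in 0 of the 4. Base composition separated the members: G and C made up 74.7% of the Fem1b window with 45 CpG pairs, 61.7% of Slc41a2 with 24, 56.7% of Rhoj with 9 and 49.7% of Mab21l2 with 14, against medians of 52.7% and 7 over all windows. The Fem1b and Mab21l2 stretches upstream of the start are shown because they lie at the opposite ends of that range. Capitals mark matches, on either strand, to GGGCGG (the GC box, in 35.7% of windows), TATAAA (13.6%) and CCAAT (37.4%). The Fem1b match is CCGCCC, the same box read on the other strand. The E-box CACGTG, in 7.15% of windows, was in 0 of the 4.
Fem1b, chr9:62811649-62811898, minus strand: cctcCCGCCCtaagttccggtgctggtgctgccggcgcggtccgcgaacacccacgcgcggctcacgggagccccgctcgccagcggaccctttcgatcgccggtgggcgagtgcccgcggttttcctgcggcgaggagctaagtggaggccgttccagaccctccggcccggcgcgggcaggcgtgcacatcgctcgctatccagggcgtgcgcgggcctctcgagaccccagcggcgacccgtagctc
Mab21l2, chr3:86548284-86548533, minus strand: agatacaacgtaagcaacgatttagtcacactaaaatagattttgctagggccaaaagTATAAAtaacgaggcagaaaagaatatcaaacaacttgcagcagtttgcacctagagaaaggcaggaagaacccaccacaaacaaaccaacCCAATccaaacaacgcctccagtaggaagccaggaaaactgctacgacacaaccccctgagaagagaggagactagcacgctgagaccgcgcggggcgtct
Both runs read towards the gene, and the matches describe letters and not bound sites.

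Values are the deposited intensities on a linear scale, on which array medians lay between 297 and 315. Differences are on the scale log2(intensity + 16) with the standard error (SE) of a limma fit to all 12 arrays. Wild-type replicate 2 stood apart: its score on the leading principal component (26.1% of the variance) was -24.96, and the other arrays lay between -7.15 and 11.72. Results that rest on it are given without it below. The Pparg probe set read 904 ± 97.7 (SD, n = 3) in wild-type and 1073 ± 162 in S273A arrays, a log2 difference of 0.24 that did not pass (limma adjusted p = 0.17).

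Fem1b gave a large and tightly repeated difference at 1 probe set and a small one at the other. Probe set 1418324_at read 2281, 2356 and 2243 in the wild-type arrays and 1254, 1214 and 1253 in the S273A arrays. It read 1915, 1881 and 1884 with rosiglitazone and 1893, 1964 and 1948 with MRL24. The wild-type arrays were highest, both ligand groups lay between, and the S273A arrays were lowest, with no overlap between S273A and any other group. S273A had 54.1% of the wild-type mean, and the log2 difference was -0.88 (SE 0.05).

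The other Fem1b probe set, 1418323_at, was annotated to the same transcript accession but behaved differently with ligand. It read 1009, 936 and 1052 in wild-type and 862, 873 and 777 in S273A arrays, so S273A was again lowest, at 83.8% of wild-type and a log2 difference of -0.25 (SE 0.07). With rosiglitazone it read 1159.6, 1215 and 1102, and with MRL24 1176, 1134 and 1144. Every ligand array lay above every wild-type array here, whereas every ligand array lay below them at 1418324_at. The Fem1b probe sets thus had the same direction for S273A and opposite directions for the ligands.

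Pkp1, whose protein anchors keratin filaments at desmosomes and also occurs free in the cytoplasm and nucleus, had a fitted fall near those of Fem1b and Mab21l2. Its probe set 1449586_at read 341, 437 and 301 in wild-type arrays and 182, 177 and 154 with S273A. It read 310.1, 325 and 271 with rosiglitazone and 311, 304 and 324 with MRL24. The S273A arrays were below all 9 others, and the ligand arrays overlapped the wild-type ones. S273A had 47.7% of the wild-type mean and a log2 difference of -0.99 (SE 0.12). Wild-type replicate 2 was the highest array of all, and without it the difference was -0.85, next to -0.86 for Fem1b 1418324_at.

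Mab21l2 was the most scattered of the 5 genes. Probe set 1418934_at read 336, 647 and 482.5 in wild-type and 305, 226 and 226 in S273A arrays. With rosiglitazone it read 265, 331 and 359, and with MRL24 326.5, 233 and 229.6. The wild-type and S273A arrays did not overlap, but the lowest wild-type and the highest S273A array lay close together, and S273A overlapped both ligand groups. S273A had 51.6% of the wild-type mean, rosiglitazone 65.1% and MRL24 53.8%. The log2 difference for S273A was -0.88 (SE 0.19), and -0.66 without wild-type replicate 2, the highest array, and -1.11 without wild-type replicate 1, the lowest of its group.

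Rhoj, a GTPase that acts on the actin skeleton and is abundant in endothelial cells, read 748, 729 and 779 in wild-type arrays at probe set 1418892_at. It read 453, 527 and 397 with S273A. The values were 586, 618 and 583 with rosiglitazone and 754, 624 and 663 with MRL24. S273A was below all other arrays, rosiglitazone lay between without touching any group, and MRL24 overlapped wild-type. S273A had 61.0% of the wild-type mean, with a log2 difference of -0.70 (SE 0.09).

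Slc41a2, a transporter of magnesium across cell membranes, had the tightest wild-type group. Probe set 1452445_at read 398, 399.9 and 405 in wild-type arrays, and 209.5, 268 and 259 in S273A arrays. It read 369, 383 and 368 with rosiglitazone and 334, 343 and 368.5 with MRL24. S273A was lowest throughout, and both ligand groups lay a little below wild-type without overlap. S273A had 61.2% of the wild-type mean and a log2 difference of -0.68 (SE 0.09).

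**Figure D1:**
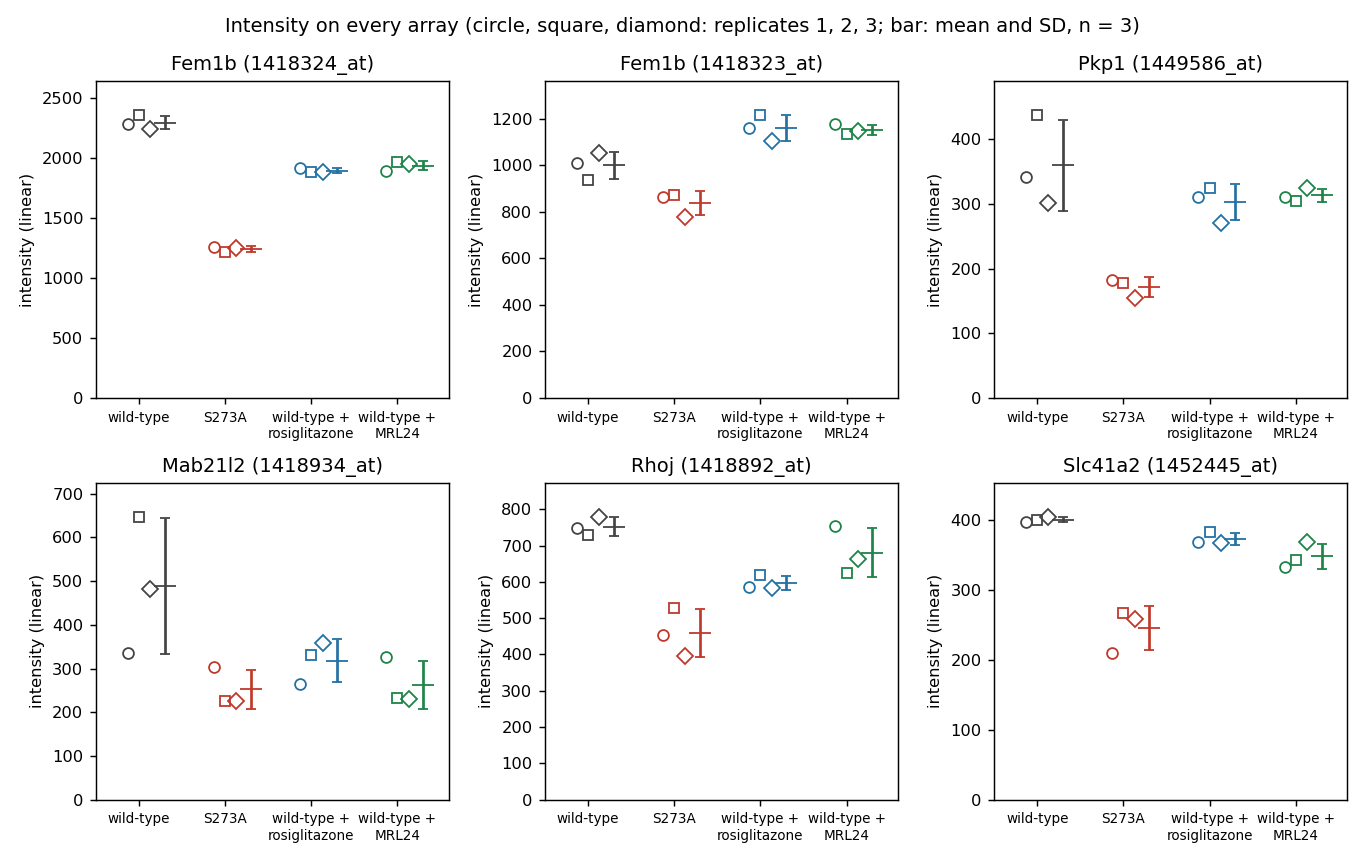
Linear intensity of the 6 probe sets on each of the 12 arrays, by group, with circles, squares and diamonds for replicates 1, 2 and 3 and bars for the mean and SD (n = 3). S273A arrays lie below all others in 5 of the 6 panels. In the Mab21l2 panel they overlap both ligand groups.

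Side by side, all 6 probe sets had S273A arrays below wild-type without overlap, a pattern that 13.7% of tested probe sets showed. The choice of genes by their fall favours it, so nothing is read from that count. In 5 of 6, all but Mab21l2, the S273A arrays were also below all 9 others, which held for 4.87% of tested probe sets. The choice of genes with low S273A values favours this pattern too, so nothing is read from it. The same wild-type arrays enter all these comparisons, so the values are not independent of each other. Since RNA came from whole cultures, fewer cells of a type and less RNA per cell cannot be told apart.

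The fitted differences from wild-type were smaller in size with either ligand than with S273A at all 6 probe sets. Choosing the genes by their fall in S273A favours that order, so nothing is read from it. Rosiglitazone arrays were below wild-type without overlap for 3 of 6 probe sets, Fem1b 1418324_at, Rhoj and Slc41a2, against 13% of tested probe sets. MRL24 arrays were so for 3 of 6, Fem1b 1418324_at, Mab21l2 and Slc41a2, against 12.7%. The log2 differences from wild-type with rosiglitazone were -0.27 for Fem1b 1418324_at, 0.21 for Fem1b 1418323_at, -0.23 for Pkp1, -0.56 for Mab21l2, -0.33 for Rhoj and -0.10 for Slc41a2. With MRL24 they were, in that order, -0.24, 0.20, -0.17, -0.82, -0.15 and -0.20. Mab21l2 with MRL24 was the value nearest to its S273A counterpart. Pkp1 was farthest from its own with either ligand, S273A being lower by log2 differences of -0.76 from rosiglitazone and -0.82 from MRL24. Fem1b 1418324_at came next, with -0.60 and -0.63. These are descriptions, since the wild-type arrays took part in choosing the genes. They include wild-type replicate 2 and are not given without it. That array was the highest of wild-type for Pkp1 (437), Mab21l2 (647) and Fem1b 1418324_at (2356). It was the lowest for Fem1b 1418323_at (936) and Rhoj (729).

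Rosiglitazone against MRL24 was the comparison in which neither group had been used for the choice, and it was tested. None of the 6 probe sets passed at a limma adjusted p of 0.05, and 0 of 6 had an unadjusted p below it. Of all tested probe sets 2.25% passed, so 0 of 6 does not set the members apart. Rhoj came nearest: rosiglitazone was lower by a log2 difference of -0.18 (95% interval -0.38 to 0.01, limma adjusted p = 0.375). The arrays of the ligand groups did not overlap for Rhoj, which held for 1 of 6 probe sets. The share over all probe sets was not counted, so nothing is read from that. Mab21l2 had the widest interval, 0.27 (-0.15 to 0.68, limma adjusted p = 0.574). Fem1b 1418324_at had a narrow one, -0.03 (-0.13 to 0.07, limma adjusted p = 0.822). The remaining differences were 0.008 for Fem1b 1418323_at (-0.13 to 0.15), -0.05 for Pkp1 (-0.31 to 0.20) and 0.10 for Slc41a2 (-0.10 to 0.29). The intervals reach to -0.38 for Rhoj and 0.68 for Mab21l2, so the ligands are not shown to act alike on these genes.

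**Figure D2:**
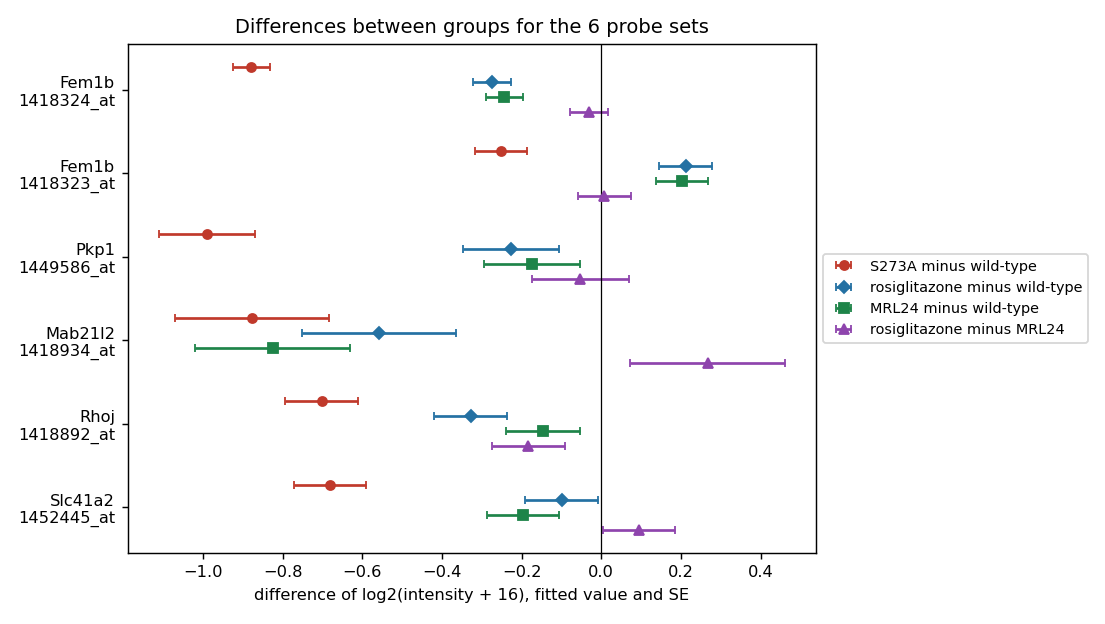
Fitted differences of log2(intensity + 16) with their SE for the 6 probe sets (rows), for S273A, rosiglitazone and MRL24 each minus wild-type and for rosiglitazone minus MRL24. The S273A values run from -0.99 (Pkp1) to -0.25 (Fem1b 1418323_at), and the ligand values for that Fem1b probe set are above 0.

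Ranked over 9154 genes by the brightest probe set of each, Pkp1 had place 2 among the falls from wild-type to S273A, Fem1b place 3, Mab21l2 place 4, Rhoj place 7 and Slc41a2 place 10. The members are thus 5 of the 10 largest falls and not the 5 largest. Other genes in that range were Syk at place 1 (380 ± 165 in wild-type and 184 ± 112 in S273A, log2 difference -1.10), Epn3 at 5 (-0.87), Bcl2l11 at 6 (-0.73), Postn at 8 (-0.69) and Egr2 at 9 (-0.69). The Syk probe set was scattered within its groups, and its other tested probe sets had log2 differences of 0.13 and 0.41. Just outside lay Epha6 at 11 and Susd2 at 12, both at -0.67, next to Slc41a2 at -0.68. Without wild-type replicate 2, Mab21l2 moved from place 5 to place 35 among the probe sets, while Fem1b 1418324_at stayed at 4. The second Fem1b probe set was at 1162.

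**Figure D3:**
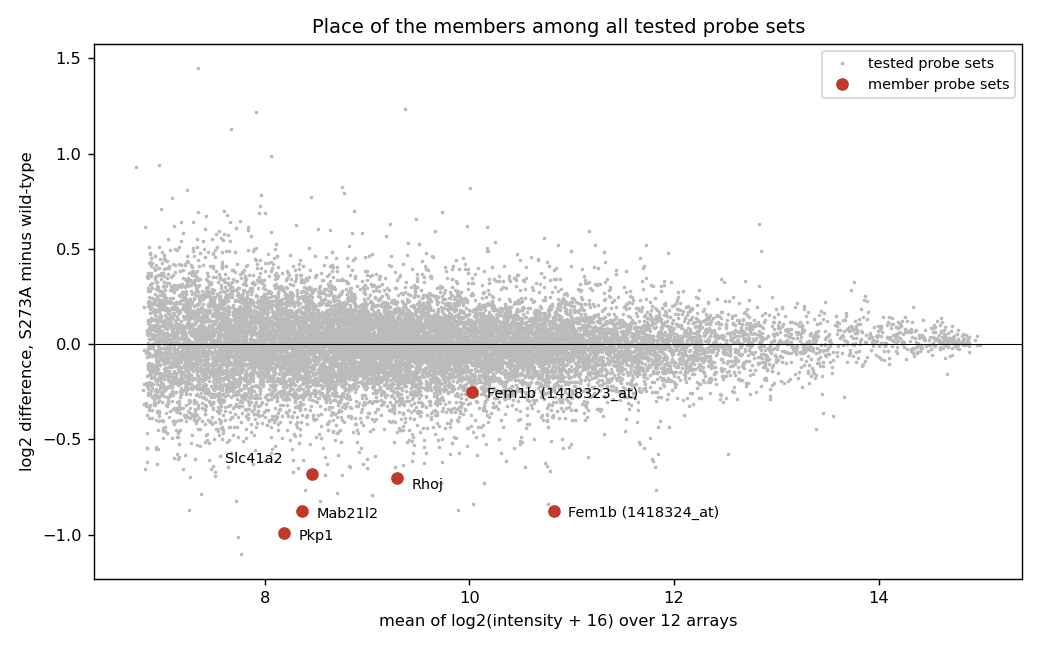
Log2 difference of S273A minus wild-type against the mean log2 intensity over 12 arrays for all 15838 tested probe sets (grey) and the 6 member probe sets (red). Of the 6, 5 lie at the lower edge of the cloud at their brightness, and Fem1b 1418323_at lies inside it.

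Across the 12 arrays the members varied together to different extents, which is a description because the arrays share the group differences used for the choice. By the brightest probe sets, Pearson's r between members ran from 0.483 (Mab21l2 with Slc41a2) to 0.948 (Fem1b with Pkp1). After each group's mean was taken away, r ran from -0.757 (Fem1b with Rhoj) to 0.502 (Fem1b with Pkp1). The 2 Fem1b probe sets had r = 0.651 over all arrays and -0.654 after the group means were removed.

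The genes most like each member were found in the same way. Ddr1, a collagen receptor kinase, was among the 3 nearest for 3 members, by a different probe set each time: Fem1b (r = 0.979), Pkp1 (0.986) and Slc41a2 (0.957). These Ddr1 probe sets had log2 differences in S273A of -0.49, -0.44 and -0.40. The other tested Ddr1 probe sets had -0.09 and -0.02 (limma adjusted p = 0.688 and 0.913). Fem1b was also near Timp3 (0.979) and Dpysl3 (0.978). Pkp1 was near Hmga2 (0.962) and the collagen gene Col1a2 (0.961), neither by the brightest probe set of its gene. Slc41a2 was near Ankrd17 (0.975) and the metallothionein gene Mt1 (0.960), while Rhoj was near Mt2 (0.970), Fbxo38 (0.965) and Slc14a1 (0.962). The nearest to Mab21l2 were BC003965 (0.954), Antkmt (0.941) and Maoa (0.937). With the group means removed, r for all these pairs ran from -0.206 (Fem1b with Dpysl3) to 0.908 (Mab21l2 with BC003965).

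The lists around the members hold paralogs, partners and genes sharing a function or tissue with them. Of these, Smad1 and Cdc42ep3 passed the test in S273A, and nothing is read from the counts. Of all 9154 genes, 2.13% were higher and 5.1% lower in S273A than in wild-type at a limma adjusted p under 0.05, and the median log2 difference was -0.0044. Among the FEM1 and CUL2 ubiquitin ligase genes, 11 of 18 were tested and 0 passed in either direction, with 2 at an unadjusted p under 0.05 and a median of -0.09. The scaffold gene Cul2 read 1172 in wild-type and 1243 in S273A arrays. Fem1a, a paralog of Fem1b, had a log2 difference of -0.12 (limma adjusted p = 0.658).

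For the desmosome, 6 of 13 genes were tested and 0 passed, with 1 at an unadjusted p under 0.05 and a median of 0.07. Pkp2 had a log2 difference of -0.15 (limma adjusted p = 0.196) and Pkp4 one of 0.07 (limma adjusted p = 0.699). Jup (plakoglobin) and the cadherin genes Dsc1 and Dsc3 were tested and did not pass, with log2 differences of 0.11, 0.13 and 0.07 (limma adjusted p = 0.674, 0.755 and 0.857). The linker gene Dsp and the cadherin genes Dsg2 and Dsc2 were below the brightness filter, as were Pkp3 and Perp.

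Of the MAB21 family and the eye and neural crest genes, 8 of 17 were tested. Smad1, a transducer of bone morphogenetic protein signals, fell by 0.35 on the log2 scale (SE 0.08, limma adjusted p = 0.0106), from 836 ± 53.1 to 653 ± 51.4 (SD, n = 3). That call was lost without S273A replicate 3 (limma adjusted p = 0.0561) and in a fit to the 6 arrays alone (0.0552), and a second Smad1 probe set gave -0.11 (limma adjusted p = 0.532). Mab21l1, the closest relative of Mab21l2, was below the filter. The list had 0 higher, 1 lower and a median of 0.05.

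Of the CDC42-type GTPases and their effectors, 22 of 29 were tested, with 0 higher, 1 lower and a median of 0.007. The fall was in Cdc42ep3, an effector that binds CDC42, by 0.19 on the log2 scale (SE 0.05, limma adjusted p = 0.0374). It was lost in 11 of 22 other settings, among them the replicate block (0.0642) and without wild-type replicate 1 (0.112) or any S273A array (0.0549 to 0.112), although the gene's other probe set gave -0.44 (limma adjusted p = 0.00089). Cdc42 itself had a difference of 0.11 (limma adjusted p = 0.174) and Rhoq, a close relative of Rhoj, one of -0.01 (limma adjusted p = 0.911).

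For magnesium transport, 13 of 19 genes were tested and 0 passed, with 1 at an unadjusted p under 0.05 and a median of 0.008. Slc41a1 had a log2 difference of -0.11 (limma adjusted p = 0.204) and Slc41a3 one of 0.03 (limma adjusted p = 0.898), against -0.68 for Slc41a2.

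**Figure D4:**
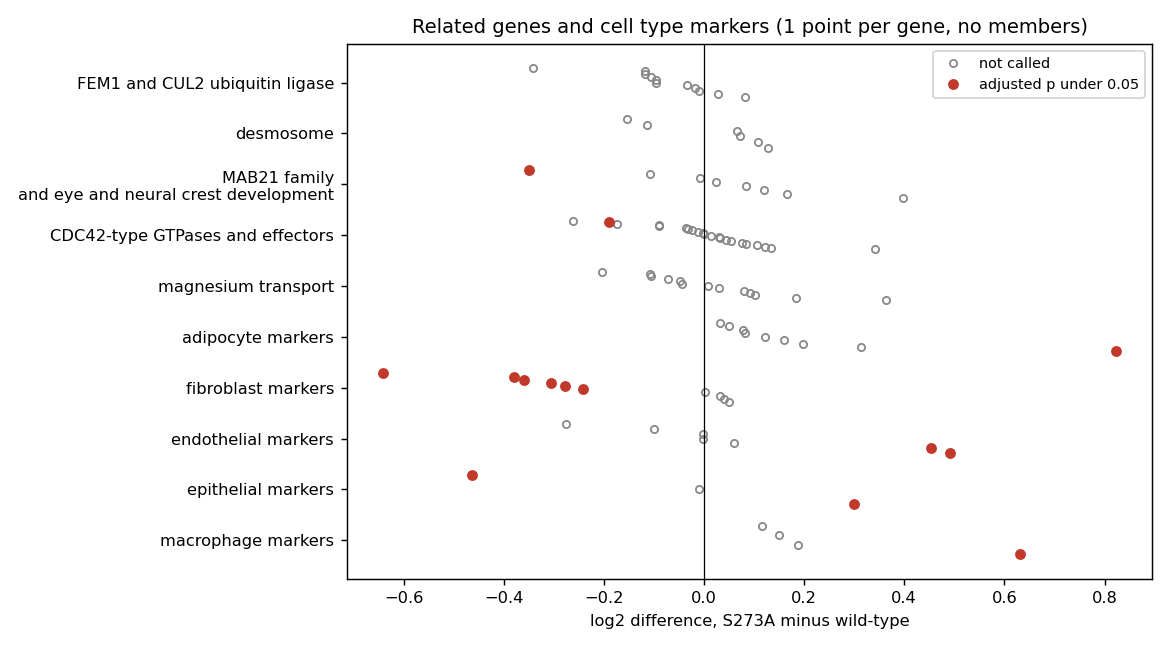
Log2 difference of S273A minus wild-type for each tested gene of 10 lists related to the members or marking cell types, 1 point a gene by its brightest probe set, with red for a limma adjusted p under 0.05. The lists around the members have 2 red points, Smad1 and Cdc42ep3, and the fibroblast markers have 6, all below 0.

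Markers of cell types were set beside these values, and their part in the members' differences was not tested. The labels call the cells adipocytes, and of 12 adipocyte markers on the array 9 passed the filter, while Adipoq, Lep and Cidec did not. With rosiglitazone 6 of 9 passed as higher, against 3.87% of all genes. Among them were Fabp4 with a log2 difference of 1.41 and Lpl with 0.83 (limma adjusted p = 9.9e-12 and 2.4e-07). In S273A all 9 had fitted differences above 0, with a median of 0.12. Only Cd36 passed, with 0.82 (limma adjusted p = 1.5e-05), against 2.13% of all genes passing as higher. The summed intensity was 19857 to 20806 against 18766 to 20315 in wild-type.

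Some fibroblast markers fell in S273A beside the members and others did not. Vim, Dcn, Fn1 and S100a4 had log2 differences of 0.04, 0.03, 0.05 and 0.002 (limma adjusted p = 0.551, 0.729, 0.347 and 0.981). Of 10 tested, 6 passed as lower, against 5.1% of all genes, and the median was -0.26. Among the 6, Pdgfra fell by 0.64 (limma adjusted p = 9.2e-06) and Col1a2 by 0.38 (limma adjusted p = 0.0013). Col3a1 fell by 0.36 (limma adjusted p = 4.2e-05) and Pdgfrb by 0.31 (limma adjusted p = 0.0050). The count was 4 without S273A replicate 3 and 3 in a fit to the 6 arrays alone, and another Pdgfra probe set gave -0.03 (limma adjusted p = 0.916). Other probe sets of Col1a2 (the one near Pkp1), Col3a1 and Pdgfrb gave -0.76, -0.79 and -0.35 (limma adjusted p = 1.8e-06, 1.1e-05 and 0.0034). Summed intensity was 123902 to 130628 in S273A and 128025 to 139134 in wild-type arrays.

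Rhoj and Pkp1 are known from endothelium and epithelium, so markers of those cells were read too. Of 13 endothelial markers 7 were tested, with 3 above 0 and a median log2 difference of -0.001. Tek and Plvap rose by 0.49 and 0.45 (limma adjusted p = 0.0193 and 0.0073), against 2.13% of all genes passing as higher. The other 5 did not pass: Kdr (-0.27), Eng (-0.10), Egfl7 (-0.002), Cldn5 (-0.001) and Cdh5 (0.06). Pecam1, Tie1, Erg, Emcn, Esam and Vwf were below the filter. The Tek call was lost without wild-type replicate 2 (0.0698), S273A replicate 2 (0.0587) or S273A replicate 3 (0.0907). Summed endothelial intensity was 1726 to 2025 in S273A and 1626 to 2053 in wild-type arrays. Of 9 epithelial markers 3 were tested: Krt18 fell by 0.46 (limma adjusted p = 0.0036) and Krt19 rose by 0.30 (limma adjusted p = 0.0134, and 0.0732 without S273A replicate 2), with Cdh1, Epcam, Krt5, Krt14, Cldn4 and Ocln below the filter. Their summed intensity was 3674 to 4030.0 in S273A and 3113 to 3588 in wild-type. Of 9 macrophage markers 4 were tested and Cd68 rose by 0.63 (limma adjusted p = 5.1e-05). Adgre1, Csf1r and Cd14 did not pass, with log2 differences of 0.12, 0.19 and 0.15 (limma adjusted p = 0.771, 0.309 and 0.226). The macrophage sum was 3667 to 3799.9 in S273A against 2939 to 3389 in wild-type. Itgam, Lyz2, Ptprc, Tyrobp and Fcer1g were below the filter.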

How the data were processed

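The authors deposited 1 table of intensity values on a linear scale for 22690 probe sets, per the values themselves; the sources used here do not name their normalization. Removing 64 controls left 22626 probe sets, of which 20380 have 1 gene symbol in the platform annotation, 691 several and 1555 none; 20351 symbols matched RefSeq by Entrez identifier. Intensities plus a pseudocount of 16 were taken to log2 and fitted in limma 3.58.1 under R 4.3.3 with lmFit and a trended eBayes as 4 groups over 12 arrays, leaving 8 residual degrees of freedom. Probe sets under the 30th percentile of mean intensity (101) were left out of testing. P-values were adjusted by Benjamini-Hochberg over the 15838 remaining, with a threshold of 0.05. The number of arrays limits the precision: an exact permutation of 3 against 3 cannot go below p = 0.1. Related lists use the brightest probe set of a gene.

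The members and the lists were chosen with earlier results of these data known. Named genes are the members, their closest paralogs, up to 4 called genes a list and Pparg. The 3 most correlated genes of each member and the neighbours in the order of falls are named too. Cul2, Jup, Dsc1, Dsc3, Fabp4, Lpl, Vim, Dcn, Fn1, S100a4 and markers below the filter were named besides after their values were seen. So were Kdr, Eng, Egfl7, Cldn5, Cdh5, Adgre1, Csf1r and Cd14. Alternatives were the pseudocount, the filter, scaling, array weights, the 6 arrays of a contrast alone, 1 probe set a gene, the replicate number as a block, and each array left out.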

Additional observations from a re-analysis of the deposited data

How the results depend on the processing

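Each member probe set kept a fall in S273A, and none passed for rosiglitazone against MRL24, in the 12 fits that left out 1 array and in the 10 other settings, except that Pkp1 was not tested under the 50th percentile filter and Fem1b 1418323_at not with 1 probe set a gene. Leaving out single arrays gave falls of -1.11 to -0.66 for Mab21l2, -1.11 to -0.85 for Pkp1, -0.80 to -0.61 for Rhoj and -0.74 to -0.58 for Slc41a2. Probe sets called numbered 1221 for S273A, 1463 for rosiglitazone and 1336 for MRL24, each against wild-type, and 356 between the ligands. A fit to the 6 arrays alone gave 415, 734, 415 and 1006, and the brightest probe set per gene only gave 654, 723, 504 and 229, where fewer were tested. Array weights gave 1105 between the ligands, and no filter gave 727 for MRL24; the cause was not tested. Leaving out single arrays gave 723 to 1227, 752 to 1611, 322 to 1784 and 160 to 865. With every array scaled to the same median, MRL24 had 632 higher and 833 lower against 913 and 423 as deposited, rosiglitazone had 695 and 857 against 797 and 666, and rosiglitazone against MRL24 244 and 113 against 201 and 155. The replicate block gave 1017, 1239, 1059 and 280. The replicate numbers of the labels did not pair the arrays: correlations of same-numbered arrays ran from -0.115 to 0.124, with 1 of 18 over 0.1.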
